A study of Mus musculus with 6 samples.

Results

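The 10 genes described here encode the 5 subunits of the transcription factor NF-κB (Rela, Rel, Relb, Nfkb1 and Nfkb2) and 5 of its inhibitors (Nfkbia, Nfkbib, Nfkbie, Nfkbiz and Tnfaip3). They were taken by name, and each symbol matched 1 NCBI Gene identifier among the 27179 genes of the count tables. All 10 were among the 14069 genes with enough counts to be tested, with between 88 counts (Rel) and 4345 counts (Nfkb2) in a library. Messenger RNA was measured by RNA-seq in 3 mouse embryonic fibroblast (MEF) lines, with 2 libraries per line from separate RNA preparations. The CPN-/- line is knocked out for Nr1d1 and Nr1d2, Per1 and Per2, and Cry1 and Cry2, genes of the repressive arm of the circadian clock. These cells were infected with a retrovirus that carried mouse Cry1 or mouse Cry2 to make CPN-/- CRY1 and CPN-/- CRY2. All 3 lines thus share the knockouts, and CPN-/- is the parent line without the virus. Expression from the virus is not under the control of the clock. Both CRY lines were grown from 1 colony each under blasticidin. Against CPN-/-, an effect of the cryptochrome therefore cannot be told apart from one of infection, selection or the colony. The labels give the cells as untreated. The sources do not say that the 2 RNA preparations of a line came from separate cultures, and the p-values then measure only the spread between these samples, which may be technical.

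NF-κB is a family of dimers that switches on genes of inflammation, survival and tissue remodelling. In resting cells, inhibitors of the IκB family hold the dimers in the cytoplasm. Receptors for cytokines and microbial products activate the IκB kinase (IKK) complex, which marks the IκB proteins for destruction and releases the dimers to the nucleus. Many of the genes that NF-κB then activates encode its own inhibitors, so the levels of these mRNAs form a negative feedback loop, and Relb and Nfkb2 are themselves known targets. Fibroblasts respond to this pathway with chemokines, adhesion molecules and matrix-degrading enzymes. Cryptochromes are repressors of CLOCK-BMAL1, the activator that binds E-box sequences in the promoters of clock genes.

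The libraries held between 25957409 and 36106949 counts. Cry1 mRNA was 125 and 115 CPM (counts scaled to library size) in the CPN-/- libraries, 165 and 189.6 in CPN-/- CRY1, and then 51.0 and 48.3 in CPN-/- CRY2, and Cry2 mRNA was 136 and 129, 50.7 and 51.7, and 349 and 351 CPM. Each exogenous gene was thus highest in its own line, while Per1, Per2, Nr1d1 and Nr1d2, knocked out in every line, still had between 476 and 3756 counts per library, and the counts per gene do not tell mutant from intact transcripts. The 8 fibroblast markers summed to between 10060 and 16620 CPM per library, although Thy1 had at most 7 counts, while the 8 leukocyte markers summed to between 1.80 and 2.21 CPM, the 5 epithelial markers to at most 1.297 CPM and the 5 endothelial markers to at most 1.04 CPM, with Cd3e and Epcam at 0. The 2 CPN-/- libraries differed by transcript length. The Spearman correlation of their log2 difference (replicate 1 less replicate 2) with length was 0.70 across 12476 genes, which are not independent replicates, and the CRY1 and CRY2 lines gave −0.21 and 0.29. Among the 10 genes, those with a transcript of 3141 bases or more (Rel, Nfkb1, Nfkb2, Nfkbiz and Tnfaip3) were higher in CPN-/- replicate 1, and those of 2716 bases or fewer were higher in replicate 2. In CPN-/- CRY1 the genes of chromosomes 3, 15, 16 and 19 were shifted together against CPN-/-, with median log2 fold changes of −0.28, −0.36, 0.27 and 0.31, while the medians of 16 other chromosomes lay between −0.13 and 0.11. Nfkb1 (chromosome 3), Nfkbiz (chromosome 16), Rela and Nfkb2 (chromosome 19) lie on 3 of these chromosomes.

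To compare levels between genes, CPM were divided by transcript length in kb. In CPN-/- cells Nfkbia, which encodes IκBα, was the most abundant of the 10 mRNAs, at 53.0 and 58.3 CPM per kb. The subunit mRNAs Nfkb2 (40.1 and 32.8 CPM per kb), Nfkb1 (31.9 and 27.1) and Rela (28.7 and 30.1) followed, and the values of Nfkb1 and Rela overlapped. Relb, Nfkbie and Nfkbiz lay close together between 10.1 and 12.1 CPM per kb, Nfkbib was at 6.68 and 8.25, and Tnfaip3 at 5.92 and 5.75. Rel, which encodes a subunit best known from lymphocytes, was last at 0.754 and 0.452 CPM per kb. In CPN-/- CRY1 the order began with Nfkb2 (38.3 and 37.2), Rela (37.2 and 36.6) and Nfkb1 (24.2 and 23.2), and Nfkbia was the fourth at 23.6 and 22.8 CPM per kb, within the range of Nfkb1. In CPN-/- CRY2 the order was Nfkb1 (29.6 and 30.2), Nfkb2 (28.8 and 28.5), Rela (24.7 in both libraries) and Nfkbia (21.4 and 22.2). With this length, the IκBα mRNA was above every subunit mRNA in both CPN-/- libraries and below Rela and Nfkb2 in all 4 libraries of the CRY lines. The order between genes depends on the length used. The union of all annotated exons is 12061 bases for Nfkb1 and 4584 for Nfkb2, against transcripts of 4117 and 3141 bases. For Nfkbia it is 1610 against 1578 bases, so that length would place Nfkb1 and Nfkb2 lower relative to Nfkbia.

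The summed level of the 5 subunits was 113 and 103 CPM per kb in CPN-/-, 106 and 103 in CPN-/- CRY1, and then 90.3 and 90.5 in CPN-/- CRY2. Rela, the main activating subunit in fibroblasts, made up 25.5% and 29.4% of this sum in CPN-/-, 35.1% and 35.5% in CPN-/- CRY1, and then 27.3% and 27.2% in CPN-/- CRY2. The share of Nfkb1, whose product is processed to a DNA-binding partner of Rela, was 28.4% and 26.4%, then 22.8% and 22.5%, then 32.8% and 33.4%. Nfkb2, the precursor subunit of the noncanonical pathway, had 35.6% and 32.0%, 36.1% in both libraries, and 31.9% and 31.5%. Relb, the partner of Nfkb2, had 9.92% and 11.8% in CPN-/-, 5.30% and 5.26% in CPN-/- CRY1, and then 6.92% and 7.003% in CPN-/- CRY2, and Rel had at most 1.14% in any library. Thus both libraries of CPN-/- CRY1 lay above the other lines for Rela and below them for Nfkb1, and both CPN-/- libraries lay above the other lines for Relb. Rela and Nfkb2 lie on chromosome 19 and Nfkb1 on chromosome 3. The medians of these chromosomes in CPN-/- CRY1 against CPN-/- were 0.31 and −0.28, and their part in the shares was not tested. With 2 libraries against 2, an exact permutation test cannot go below p = 0.333, so the shares are a description. They depend on the length used. With the union of all annotated exons as length, an alternative chosen after seeing the data, the mean share in CPN-/- was 14.7% for Nfkb1 in place of 27.4%, and 38.2% for Rela in place of 27.4%.

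**Figure D1:**
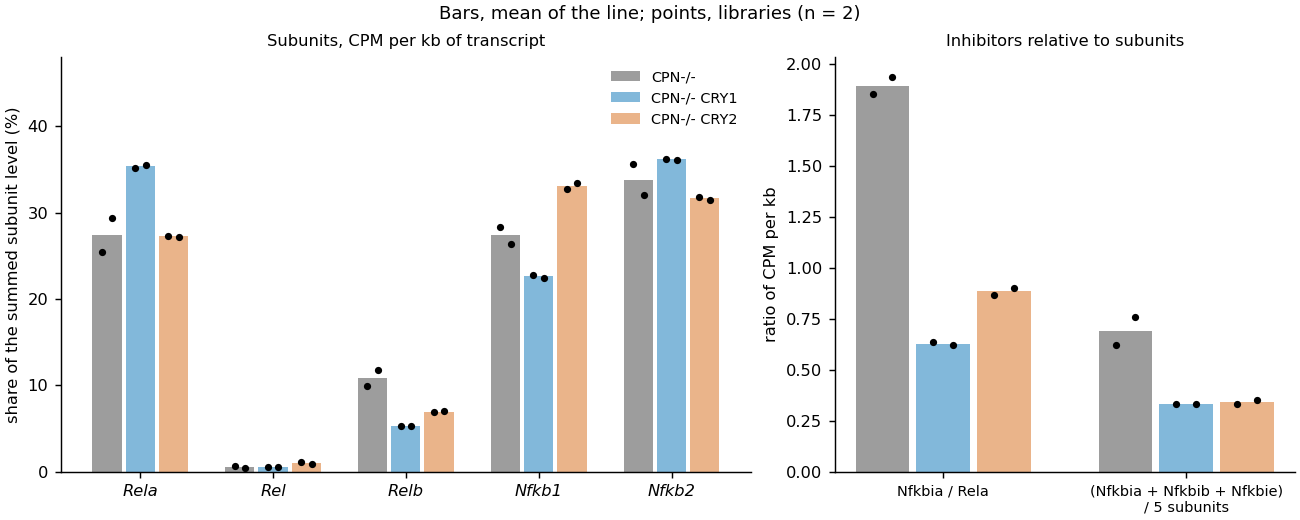
Share of each NF-κB subunit in the summed CPM per kb of the 5 subunits (left, percent) and the ratio of inhibitor to subunit levels (right, CPM per kb over CPM per kb) in the 3 lines. Bars are means of 2 libraries and points are the libraries, and the Nfkbia to Rela ratio is 1.85 and 1.94 in CPN-/- against at most 0.902 in the libraries of the CRY lines.

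The ratio of Nfkbia to Rela, both per kb, was 1.85 and 1.94 in CPN-/-, 0.634 and 0.621 in CPN-/- CRY1, and then 0.868 and 0.902 in CPN-/- CRY2. The sum of the 3 classical IκB mRNAs (Nfkbia, Nfkbib and Nfkbie) over the sum of the 5 subunits was 0.623 and 0.756 in CPN-/-, 0.330 in both CPN-/- CRY1 libraries, and then 0.334 and 0.350 in CPN-/- CRY2. The libraries of the CRY lines were therefore all below both CPN-/- libraries for both ratios. Within the classical IκB sum, Nfkbia made up 75.6% and 75.1% in CPN-/-, 67.6% and 66.8% in CPN-/- CRY1, and then 71.1% and 70.2% in CPN-/- CRY2. The share of Nfkbib was 9.52% and 10.6% in CPN-/-, 21.7% and 21.3% in CPN-/- CRY1, and then 17.2% and 17.7% in CPN-/- CRY2, with no overlap between lines. Nfkbib itself did not rise. Its log2 fold changes against CPN-/- were −0.01 in the CRY1 line and −0.46 in the CRY2 line, neither called, while Nfkbia and Nfkbie were called lower in both. The ratio of Nfkb2 to Nfkb1 was 1.25 and 1.21 in CPN-/-, 1.58 and 1.61 in CPN-/- CRY1, and then 0.972 and 0.943 in CPN-/- CRY2, so that it was highest in CPN-/- CRY1 and lowest in CPN-/- CRY2. Nfkb2 lies on chromosome 19 and Nfkb1 on chromosome 3. The median log2 fold changes of these chromosomes in CPN-/- CRY1 against CPN-/- CRY2 were 0.46 and −0.40, and their part in this ratio was not tested.

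Promoter sequences are shown for the 3 inhibitor genes that were lower in both CRY lines and that were found in the RefSeq table, since NF-κB is known to act on its feedback genes through κB sequences. For Tnfaip3 the 137 bases nearest the start are given, because an annotated exon lies further out. They are RefSeq promoters of GRCm38.p6 (mm10), at chr12:55492648-55492897 on the reverse strand for Nfkbia, chr17:45555450-45555699 on the forward strand for Nfkbie, and chr10:19015411-19015547 on the reverse strand for Tnfaip3. Capitals mark the matches of the stricter κB consensus and of the E-box on either strand.
Nfkbia: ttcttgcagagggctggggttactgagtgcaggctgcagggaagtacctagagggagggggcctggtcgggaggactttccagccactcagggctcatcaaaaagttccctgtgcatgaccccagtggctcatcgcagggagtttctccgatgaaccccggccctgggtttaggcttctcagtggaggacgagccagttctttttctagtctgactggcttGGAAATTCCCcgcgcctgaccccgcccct
Nfkbie: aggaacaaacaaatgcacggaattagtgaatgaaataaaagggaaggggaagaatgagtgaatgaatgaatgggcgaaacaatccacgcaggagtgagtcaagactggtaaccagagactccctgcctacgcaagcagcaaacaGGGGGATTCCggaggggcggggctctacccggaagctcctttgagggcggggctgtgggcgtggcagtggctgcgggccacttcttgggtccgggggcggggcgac
Tnfaip3: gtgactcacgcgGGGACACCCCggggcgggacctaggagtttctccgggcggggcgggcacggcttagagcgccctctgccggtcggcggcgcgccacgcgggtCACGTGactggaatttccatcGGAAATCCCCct
The κB match lies 29 to 20 bases before the start in Nfkbia and 106 to 97 bases before it in Nfkbie. Tnfaip3 holds κB matches at 125 to 116 and at 12 to 3 bases, and an E-box (CACGTG) between them at 33 to 28 bases before the start. RefSeq promoters were found for 7 of the 10 genes, Nfkb1, Relb and Nfkbiz being without an entry. In the 250 bases before the start, the stricter κB consensus was found in 5 of these 7 genes (Rel, Nfkb2, Nfkbia, Nfkbie and Tnfaip3) and in 7.25% of 32851 promoters. The loose form GGGNNNNNCC, which contains the stricter one, was found in 6 of the 7 and in 45.8% of promoters, and the E-box in Tnfaip3 alone and in 6.02% of promoters. Genes were counted with a match in any of their promoters, while the percentages count each promoter by itself. Nfkb2 had 3 promoters and Tnfaip3 had 2, and the second promoter of Tnfaip3 held no stricter κB match and no E-box. A match describes the sequence and does not show that a factor binds, and the absence of a match says only that these letters are not in this window. Of the 5 genes with the stricter consensus, Nfkbia, Nfkbie and Tnfaip3 were lower in both CRY lines, while Rel and Nfkb2 were not called in either.

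The CRY lines were compared with their parent to ask which of these mRNAs differ between each CRY line and CPN-/-. Relb, Nfkbia, Nfkbie, Nfkbiz and Tnfaip3 fell in CPN-/- CRY1 and also in CPN-/- CRY2, by between 1.44-fold and 3.11-fold. Genes listed here as inhibitors made up most of this group, with 4 of 5 inhibitors and 1 of 5 subunits called lower in each comparison. Rela rose in CPN-/- CRY1, and the other 4 genes did not pass the test in either line. In CPN-/- CRY1, 5 of 10 members were called lower and 1 higher at an adjusted p under 0.05 (quasi-likelihood test of edgeR, Benjamini-Hochberg adjustment over all tested genes). Of the tested genes, 24.3% were called in this comparison, 13.1% lower and 11.2% higher. In CPN-/- CRY2, 5 members were called lower and 0 higher by the same edgeR test, beside 6.66% of tested genes called, 4.08% lower and 2.58% higher. Among genes higher in CPN-/- CRY2, 1 member (Rel) had an unadjusted p under 0.05 and DESeq2 called 0. The 10 genes had a median log2 fold change of −0.42 against CPN-/- in the CRY1 line and −0.67 in the CRY2 line, beside −0.01 over all tested genes in each. The libraries of the CRY line lay wholly below those of CPN-/- for 6 members in CPN-/- CRY1 (34.0% of tested genes did) and for 8 in CPN-/- CRY2 (27.2%), and wholly above for 1 in each (32.9% and 28.0%). Both comparisons use the same CPN-/- libraries and are not independent of each other. When the trend of each library with transcript length was removed, 6 members were lower in each comparison (Nfkb1 or Nfkb2 in addition), and calls over the whole table went from 1844 lower and 1579 higher to 2468 and 3160 for CPN-/- CRY1, and from 574 lower and 363 higher to 1000 and 1495 for CPN-/- CRY2. The share of all tested genes called in CPN-/- CRY1 went from 24.3% to 63.0% without CPN-/- replicate 1, 44.1% without CPN-/- replicate 2, 4.74% and 4.64% without CPN-/- CRY1 replicate 1 and 2, and 12.5% without either CPN-/- CRY2 library. For the CRY2 line it went from 6.66% to 56.4% and 22.1% without CPN-/- replicate 1 and 2, and to 1.37% and 1.41% without CPN-/- CRY2 replicate 1 and 2. Calls of members that were gained or lost when a library was left out therefore stand beside a rise or fall of calls over the whole table. In bulk RNA, fewer cells of a type and less RNA per cell cannot be told apart.

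**Figure D2:**
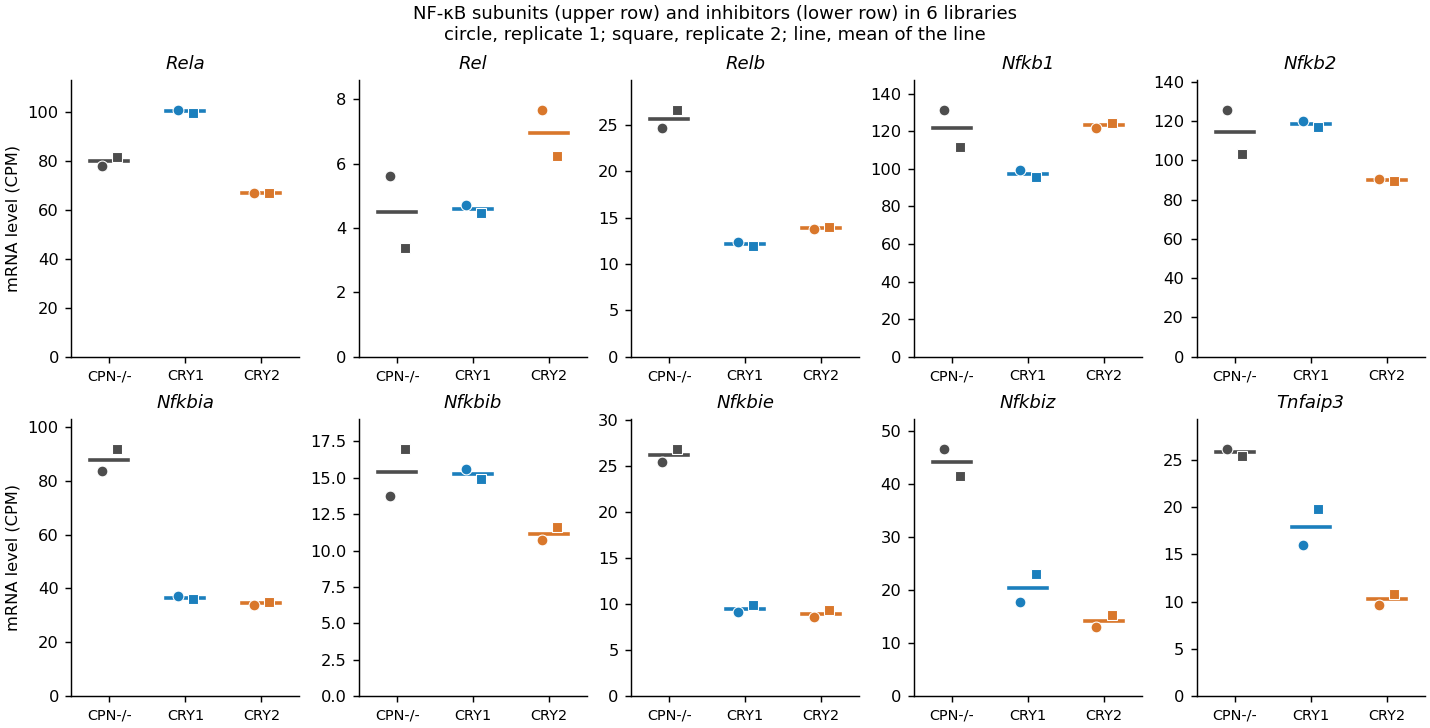
mRNA level in CPM (y axis, from 0) of the 5 NF-κB subunits and 5 inhibitors in the 6 libraries, with circles for replicate 1, squares for replicate 2 and a line for the mean of each cell line. Nfkbia falls from 83.7 and 92.0 CPM in CPN-/- to between 33.8 and 37.2 CPM in the libraries of the CRY lines, while Nfkbib, Nfkb2 and Rel overlap between CPN-/- and CPN-/- CRY1.

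Nfkbia (NCBI Gene 18035, chromosome 12, 55489409 to 55492647 of mm10, reverse strand) encodes IκBα, the inhibitor that is degraded and resynthesised in each round of signalling. Its level was 83.7 and 92.0 CPM in CPN-/-, 37.2 and 35.9 CPM in CPN-/- CRY1, and 33.8 and 35.1 CPM in CPN-/- CRY2. All 4 libraries of the CRY lines were thus below 38 CPM and the lines did not overlap with CPN-/-. The level fell 2.40-fold in CPN-/- CRY1 (log2 fold change −1.26, SE 0.10, edgeR adjusted p = 0.00051) and 2.55-fold in CPN-/- CRY2 (−1.35, SE 0.10, edgeR adjusted p = 0.000861). Nfkbie (NCBI Gene 18037, chromosome 17, 45555700 to 45563169, forward strand) encodes IκBε, a slower member of the same feedback. It was at 25.5 and 26.9 CPM in CPN-/-, 9.10 and 9.86 CPM in CPN-/- CRY1, and 8.60 and 9.34 CPM in CPN-/- CRY2. The fall was 2.76-fold in CPN-/- CRY1 (log2 fold change −1.47, SE 0.12, edgeR adjusted p = 0.00051) and 2.92-fold in CPN-/- CRY2 (−1.54, SE 0.12, edgeR adjusted p = 0.000903). Nfkbia and Nfkbie passed the test in both comparisons under all 13 other fits, with adjusted p of at most 0.0245.

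Nfkbiz (NCBI Gene 80859, chromosome 16, 55811375 to 55838954, reverse strand) encodes IκBζ, an atypical nuclear IκB that helps switch on a subset of late NF-κB genes. Its level was 46.6 and 41.5 CPM in CPN-/-, 17.7 and 23.1 CPM in CPN-/- CRY1, and 13.1 and 15.3 CPM in CPN-/- CRY2, in descending order of the lines and without overlap. It fell 2.17-fold in CPN-/- CRY1 (log2 fold change −1.12, SE 0.16, edgeR adjusted p = 0.00464) and 3.11-fold in CPN-/- CRY2 (−1.64, SE 0.16, edgeR adjusted p = 0.00249). Chromosome 16 was shifted upward in CPN-/- CRY1, and against its chromosome median the log2 fold change of Nfkbiz was −1.39. Without CPN-/- CRY1 replicate 1 the change in that line was −0.93 and missed the threshold (edgeR adjusted p = 0.0506). Tnfaip3 (NCBI Gene 21929, chromosome 10, 19000910 to 19015410, reverse strand) encodes a ubiquitin-editing enzyme that shuts off signalling above the IKK complex. It was at 26.2 and 25.4 CPM in CPN-/-, 15.99 and 19.8 CPM in CPN-/- CRY1, and 9.66 and 10.8 CPM in CPN-/- CRY2, so that the lines again did not overlap and CPN-/- CRY1 lay between the others. The fall was 1.44-fold in CPN-/- CRY1 (log2 fold change −0.53, SE 0.14, edgeR adjusted p = 0.032) and 2.52-fold in CPN-/- CRY2 (−1.33, SE 0.14, edgeR adjusted p = 0.0032).

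The call of Tnfaip3 in CPN-/- CRY1 was the least stable of the inhibitors. It was lost without CPN-/- CRY1 replicate 1 (log2 fold change −0.38, edgeR adjusted p = 0.225) or replicate 2 (−0.69, edgeR adjusted p = 0.0841), without CPN-/- CRY2 replicate 1 or 2 (−0.52 in both, edgeR adjusted p = 0.0788 and 0.0786), and when the 4 libraries of the comparison were fitted alone (−0.53, edgeR adjusted p = 0.078). In CPN-/- CRY2 it was lost without replicate 1 of that line (−1.25, edgeR adjusted p = 0.0542). Nfkbib (NCBI Gene 18036, chromosome 7, 28758251 to 28766644, reverse strand) encodes IκBβ, a more persistent inhibitor whose gene is not part of the fast feedback. Its level was 13.8 and 17.0 CPM in CPN-/-, 15.6 and 14.95 CPM in CPN-/- CRY1, and 10.7 and 11.6 CPM in CPN-/- CRY2, and the CPN-/- CRY1 libraries lay between the CPN-/- libraries. It was not called in CPN-/- CRY1 (log2 fold change −0.01, SE 0.14, edgeR adjusted p = 0.978) or CPN-/- CRY2 (−0.46, SE 0.14, edgeR adjusted p = 0.112). Without CPN-/- replicate 1, where 56.4% of tested genes were called, Nfkbib was called lower in CPN-/- CRY2 (log2 fold change −0.61, edgeR adjusted p = 2.9e-05). Exons of Nfkbib overlap those of Sirt2 and Ccer2 on the other strand over 356 bases, and whether the counting used the strand is not given in the sources used here.

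**Figure D3:**
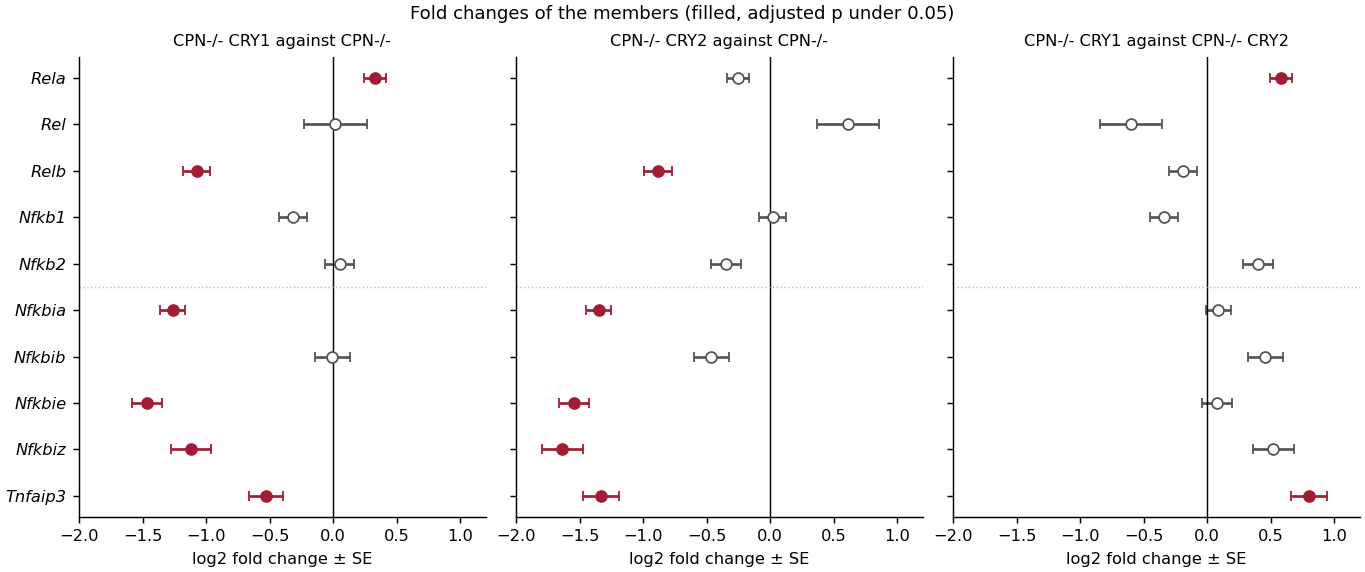
log2 fold change ± SE (x axis) of the 10 genes in the 3 comparisons, subunits above and inhibitors under the dotted line, with filled points for an adjusted p under 0.05. Relb, Nfkbia, Nfkbie, Nfkbiz and Tnfaip3 are filled and negative against CPN-/- in both CRY lines, and Rela (0.58) and Tnfaip3 (0.80) are filled between the CRY lines.

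Among the subunits, Relb (NCBI Gene 19698, chromosome 7, 19606217 to 19629438, reverse strand) was the member called lower in both lines. RelB forms dimers with the Nfkb2 product in the noncanonical pathway. Its level was 24.7 and 26.7 CPM in CPN-/-, 12.4 and 11.97 CPM in CPN-/- CRY1, and 13.8 and 14.01 CPM in CPN-/- CRY2. Both CPN-/- libraries were thus above all 4 others. It fell 2.11-fold in CPN-/- CRY1 (log2 fold change −1.07, SE 0.11, edgeR adjusted p = 0.00117) and 1.84-fold in CPN-/- CRY2 (−0.88, SE 0.11, edgeR adjusted p = 0.00474). The call in CPN-/- CRY2 was lost without CPN-/- CRY2 replicate 1 (−0.87, edgeR adjusted p = 0.0836) or replicate 2 (−0.88, edgeR adjusted p = 0.0796).

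Rela (NCBI Gene 19697, chromosome 19, 5637442 to 5648134, forward strand) was at 77.9 and 81.8 CPM in CPN-/-, 101 and 99.5 CPM in CPN-/- CRY1, and 67.0 CPM in both CPN-/- CRY2 libraries. CPN-/- CRY1 was highest and CPN-/- CRY2 lowest, without overlap. The level rose 1.26-fold in CPN-/- CRY1 (log2 fold change 0.33, SE 0.09, edgeR adjusted p = 0.0378) and was not called in CPN-/- CRY2 (−0.25, SE 0.09, edgeR adjusted p = 0.153). The median log2 fold change of the 473 tested genes on chromosome 19 was 0.31 in CPN-/- CRY1, so that Rela differed from its chromosome by 0.01. The call was lost without CPN-/- CRY1 replicate 1 or 2 (0.32 and 0.34, edgeR adjusted p = 0.232 and 0.225), without CPN-/- CRY2 replicate 1 or 2 (0.33 in both, edgeR adjusted p = 0.117 in both), when the 4 libraries of the comparison were fitted alone (0.33, edgeR adjusted p = 0.118), and with the replicate number as a block (0.33, edgeR adjusted p = 0.0617). In CPN-/- CRY2, Rela was called lower without CPN-/- replicate 1 (−0.29, edgeR adjusted p = 0.000591) or replicate 2 (−0.21, edgeR adjusted p = 0.0245), fits that called 56.4% and 22.1% of tested genes.

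Nfkb2 (NCBI Gene 18034, chromosome 19, 46300994 to 46312400, forward strand) was at 126 and 103 CPM in CPN-/-, 120.2 and 117 CPM in CPN-/- CRY1, and 90.3 and 89.5 CPM in CPN-/- CRY2. The CPN-/- libraries spanned those of CPN-/- CRY1 and were above those of CPN-/- CRY2. It was not called in either line, with log2 fold changes of 0.05 (SE 0.12, edgeR adjusted p = 0.764) and −0.35 (SE 0.12, edgeR adjusted p = 0.138). Nfkb2 shares 830 exon bases with Psd and another gene on the opposite strand. Nfkb1 (NCBI Gene 18033, chromosome 3, 135584655 to 135691969, reverse strand) was at 132 and 112 CPM in CPN-/-, 99.5 and 95.4 CPM in CPN-/- CRY1, and 122 and 124 CPM in CPN-/- CRY2. The CPN-/- CRY1 libraries were below all others, but the change was not called (log2 fold change −0.32, SE 0.11, edgeR adjusted p = 0.0739) and lay 0.04 below the chromosome 3 median of −0.28. In CPN-/- CRY2 the log2 fold change of Nfkb1 was 0.02 (SE 0.11, edgeR adjusted p = 0.926). Rel (NCBI Gene 19696, chromosome 11, 23736847 to 23770969, reverse strand), the member with the fewest counts, was at 5.63 and 3.38 CPM in CPN-/-, 4.70 and 4.48 CPM in CPN-/- CRY1, and 7.68 and 6.23 CPM in CPN-/- CRY2. The CPN-/- libraries differed more than any other pair, and neither change was called (log2 fold changes 0.02, SE 0.25, and 0.61, SE 0.25, edgeR adjusted p = 0.968 and 0.19).

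Calls of these 3 subunits depended on the CPN-/- libraries, as did those over the whole table. Against the CRY1 line 63.0% of tested genes were called without replicate 1, and 56.4% against the CRY2 line, and without replicate 2 the shares were 44.1% and 22.1%, so that the gained calls of members went with a gain over the whole table. Without CPN-/- replicate 1, Nfkb1 was called lower in CPN-/- CRY1 (log2 fold change −0.19, edgeR adjusted p = 0.0119), Nfkb2 higher in CPN-/- CRY1 (0.20, edgeR adjusted p = 0.00868) and lower in CPN-/- CRY2 (−0.20, edgeR adjusted p = 0.0126), and Rel higher in CPN-/- CRY2 (1.04, edgeR adjusted p = 1.8e-05). Without CPN-/- replicate 2, Nfkb1 was called lower in CPN-/- CRY1 (−0.43, edgeR adjusted p = 1.8e-06) and Nfkb2 lower in CPN-/- CRY2 (−0.48, edgeR adjusted p = 5.93e-07), while Rel in CPN-/- CRY1 changed sign to −0.28 and was not called. With 1 CPN-/- library left, its spread is assumed to be that of the other lines.

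**Figure D4:**
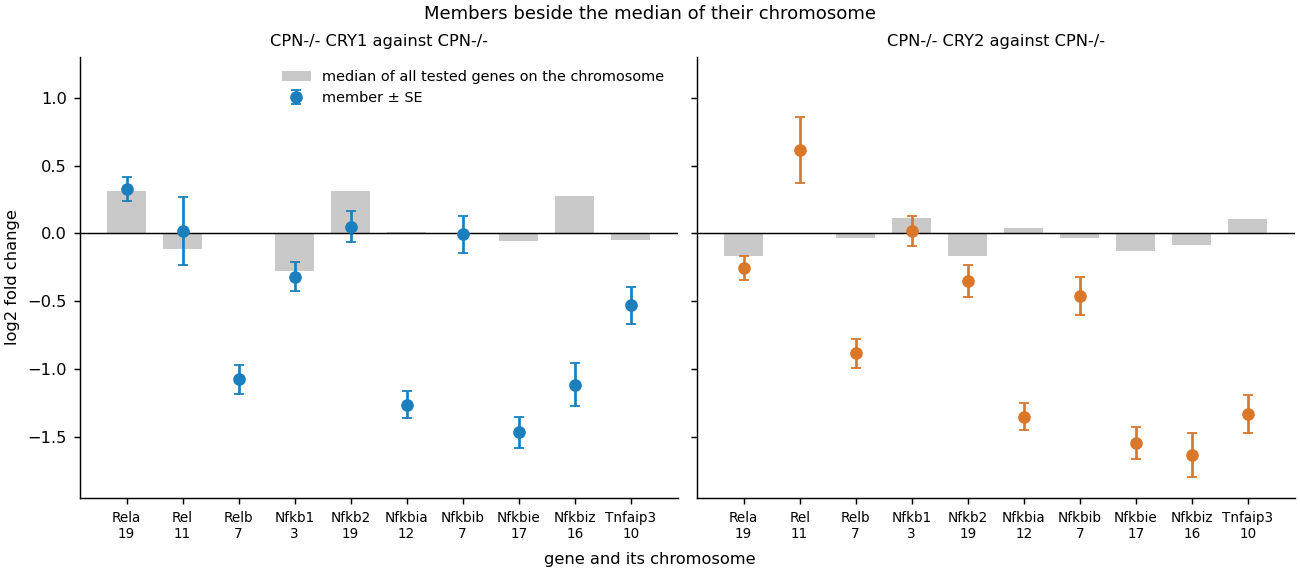
log2 fold change ± SE of the 10 genes (points) beside the median log2 fold change of all tested genes on their chromosome (grey bars), for CPN-/- CRY1 (left) and CPN-/- CRY2 (right) against CPN-/-. In CPN-/- CRY1 the point of Rela lies at its bar (0.33 and 0.31) and that of Nfkb1 near its own (−0.32 and −0.28), while Relb, Nfkbia, Nfkbie, Nfkbiz and Tnfaip3 lie below their bars.

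The CRY lines were also compared with each other, which tests directly whether a gene differs between them. Rela and Tnfaip3 were higher in CPN-/- CRY1 than in CPN-/- CRY2, and 8 of 10 members did not pass. Called were 2 members higher and 0 lower by edgeR, beside 16.3% of tested genes called, 7.72% higher and 8.57% lower. The libraries of CPN-/- CRY1 lay wholly above those of CPN-/- CRY2 for 6 members (36.4% of tested genes did) and wholly below for 3 (36.9%). With the trend with transcript length removed, 2264 tested genes were lower and 2298 higher, in place of 1206 and 1086. At an unadjusted p under 0.05, 2 members (Rel and Nfkb1) were lower and 5 higher, and DESeq2 called 0 lower and 4 higher. Rela differed 1.496-fold (log2 fold change 0.58, SE 0.09, edgeR adjusted p = 0.00706), beside a chromosome 19 median of 0.46. Tnfaip3 differed 1.74-fold (0.80, SE 0.14, edgeR adjusted p = 0.0115), beside a chromosome 10 median of −0.16. For Nfkbia the difference was 0.09 (SE 0.10, edgeR adjusted p = 0.624), for Nfkbie 0.08 (SE 0.12, edgeR adjusted p = 0.718) and for Relb −0.19 (SE 0.11, edgeR adjusted p = 0.29). Nfkbiz (0.52, SE 0.16), Nfkbib (0.46, SE 0.14), Nfkb2 (0.40, SE 0.12), Nfkb1 (−0.34, SE 0.11) and Rel (−0.60, SE 0.24) had edgeR adjusted p between 0.062 and 0.149. The chromosome medians beside them were 0.35 for Nfkbiz, 0.04 for Nfkbib, 0.46 for Nfkb2, −0.40 for Nfkb1 and −0.09 for Rel. These 5 genes were called when the 4 libraries of the CRY lines were fitted without both CPN-/- libraries, and also without CPN-/- replicate 1 or 2 alone, with nearly the same fold changes and edgeR adjusted p of at most 0.00223. These fits called 49.7%, 48.4% and 47.7% of all tested genes, so the gain of members went with a gain over the whole table. The call of Rela was lost when any 1 of the 4 CRY libraries was left out (0.57 to 0.59, edgeR adjusted p between 0.0922 and 0.111), where at most 3.42% of tested genes were called. That of Tnfaip3 was lost without CPN-/- CRY1 replicate 2 (0.64, edgeR adjusted p = 0.114), CPN-/- CRY2 replicate 1 (0.73, edgeR adjusted p = 0.122) or CPN-/- CRY2 replicate 2 (0.88, edgeR adjusted p = 0.0852).

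The other genes of the pathway were examined in lists that were written with earlier results of these data known. Of 17 tested genes for other inhibitors and atypical IκB proteins, 6 fell in CPN-/- CRY1 and 4 in CPN-/- CRY2, and 0 rose in either, beside 13.1% of all tested genes lower and 11.2% higher for the CRY1 line, and 4.08% lower and 2.58% higher for the CRY2 line. In place of 6, 3 were called lower in CPN-/- CRY1 at an adjusted p under 0.01, where 680 of all tested genes were lower in place of 1844. Fewer were called lower in each CRY line when a library of that line was left out, and more without CPN-/- replicate 1. Calls over the whole table fell and rose in the same fits. At an unadjusted p under 0.05, 1 was higher in CPN-/- CRY1 and 0 in CPN-/- CRY2, and DESeq2 called 0 higher. Bcl3, an atypical nuclear IκB and a known target, was at 9.27 and 9.44 CPM in CPN-/-, 1.19 and 0.779 CPM in CPN-/- CRY1, and 0.808 and 0.556 CPM in CPN-/- CRY2 (log2 fold changes −3.23, SE 0.23, and −3.77, SE 0.25). Zc3h12a, an RNase that degrades cytokine mRNAs, fell from 21.5 and 19.8 CPM to 7.31 and 7.04 and to 5.07 and 5.34 CPM (−1.52 and −1.99, SE 0.12 each). Tnip1, which binds the Tnfaip3 product, had log2 fold changes of −0.63 and −0.80 (SE 0.10 each) and fell in both lines, and Otulin, a deubiquitinase of linear chains on chromosome 15, fell by 0.84 in CPN-/- CRY1 (SE 0.16), beside a chromosome median of −0.36. The fourth gene that fell in CPN-/- CRY2, Tnip3, was named after its values were seen, had 2 to 15 counts per library and met the count filter in CPN-/- only, so that it could be called only as lower. Without Tnip3, 5 of 16 and 3 of 16 fell.

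Of 27 tested genes of the IKK complex and its upstream kinases, adaptors and ligases, 6 fell and 3 rose in CPN-/- CRY1 (22.2% and 11.1%, beside 13.1% and 11.2% of all tested genes), and 0 were called in CPN-/- CRY2, where 6 were lower and 1 higher at an unadjusted p under 0.05 and DESeq2 called 1 lower. In CPN-/- CRY1, the ubiquitin ligases Birc3 (log2 fold change −0.72, SE 0.11) and Birc2 (−0.47, SE 0.10) fell, as did Sharpin (−0.49, SE 0.11, on chromosome 15). Traf5 (0.76, SE 0.12), Chuk (0.56, SE 0.09) and Ripk1 (0.44, SE 0.12) rose. Chuk, a catalytic subunit of IKK, lies on chromosome 19. Only 1 gene of this list was called lower and 0 higher in CPN-/- CRY1 without replicate 1 or 2 of that line, 2 lower and 2 higher in the fit of 4 libraries or without CPN-/- CRY2 replicate 1 or 2, 9 lower and 11 higher without CPN-/- replicate 1, and 9 lower and 6 higher without CPN-/- replicate 2. The CRY2 line had 6 lower and 11 higher without CPN-/- replicate 1, and 7 lower and 2 higher without CPN-/- replicate 2. This list had a median of −0.05 against CPN-/- in the CRY1 line and −0.01 in the CRY2 line. Of 13 tested receptors, Tlr2 fell in both lines (−1.28, SE 0.11, and −0.79, SE 0.11), and Tlr4 (1.58, SE 0.19), Tnfrsf11a (1.23, SE 0.13) and Il1rap (0.70, SE 0.17, on chromosome 16) rose in CPN-/- CRY1, as did Tnfrsf12a (0.47), which was named after its values were seen. The 4 higher receptors stand beside 11.2% of all tested genes. Fewer were called higher when any 1 of the 4 CRY libraries was left out, and more when 1 CPN-/- library was left out. Calls over the whole table fell and rose in the same fits. The call of Tlr2 in CPN-/- CRY2 was lost without replicate 1 or 2 of that line. No receptor rose in CPN-/- CRY2 (0 of 13), while 3 were higher at an unadjusted p under 0.05 and DESeq2 called 2. Only 4 of 12 ligand genes could be tested, and Tnf and Il1b had at most 1 count in any library. Il18 was at 11.1 and 13.9 CPM in CPN-/-, 4.57 and 4.22 CPM in CPN-/- CRY1 and 11.8 and 12.5 CPM in CPN-/- CRY2, and fell in CPN-/- CRY1 (log2 fold change −1.5035, SE 0.15). Il33, named after its values were seen, had 0 to 14 counts per library and met the count filter in CPN-/- CRY2 only. It was at 0.377 and 0.307 CPM in CPN-/- and at most 0.0277 CPM in CPN-/- CRY1. Its call as lower in CPN-/- CRY1 is therefore only a description. In CPN-/- CRY2, 0 ligands were called, also at an unadjusted p under 0.05 or by DESeq2.

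Of 25 known target genes of NF-κB, 23 were tested. For CPN-/- CRY1, 7 of these (C3, Ccl5, Cxcl5, Lcn2, Mmp13, Nos2 and Saa3) met the count filter in CPN-/- only, with between 0.723 and 69.4 CPM there and at most 0.332 CPM in CPN-/- CRY1, and for CPN-/- CRY2 the same held for these 7 and Il6, with at most 0.445 CPM for any of the 8 in that line. Such genes could be called only as lower in these comparisons, so their levels are a description and they enter no count. The chemokine Cxcl5 was at 11.3 and 11.5 CPM in CPN-/- and at most 0.0277 CPM in any library of the CRY lines, the complement gene C3 at 69.4 and 44.1 against at most 0.259 CPM, and Nos2, the inducible nitric oxide synthase, at 17.7 and 12.9 against at most 0.111 CPM. Of the 16 targets that met the filter in both lines, 9 fell and 2 rose in CPN-/- CRY1, where 12.1% of the 13089 tested genes that met the same condition were lower and 11.5% higher. Of 15 such targets, 7 fell and 0 rose in CPN-/- CRY2, where 3.08% of 13106 such genes were lower and 2.60% higher. At an unadjusted p under 0.05, 0 were higher in CPN-/- CRY2, as with DESeq2. The median log2 fold change of these targets was −0.89 and −0.62, beside 0.00 over all genes under the same condition, which leaves out targets that fell to near 0. Without CPN-/- CRY2 replicate 1 or 2, 3 of the 15 were called lower in that line. Without CPN-/- CRY1 replicate 1 or 2, 8 and 7 of the 16 were lower and 0 higher in that line, and in the fit of 4 libraries or without CPN-/- CRY2 replicate 1 or 2, 1 was higher. Of the 9 that fell in CPN-/- CRY1, the largest changes were in Cxcl1 (log2 fold change −6.07, SE 0.20), Ccl7 (−3.57, SE 0.20) and Mmp3 (−3.29, SE 0.20). These 3 were named after their values were seen. The 2 that rose there were Bcl2l1, a survival gene (log2 fold change 0.62, SE 0.10), and Plau, the urokinase gene (0.48, SE 0.10). Over the genes that met the filter in both lines, the 5 inhibitors had medians of −1.12 and −1.35. The list of other inhibitors and atypical IκB proteins had −0.24 and −0.08. The medians of the subunits, the IKK list and the receptors lay between −0.25 and 0.38. Of the fibroblast markers, Pdgfra fell and Pdgfrb rose in CPN-/- CRY1 (log2 fold changes −1.31, SE 0.14, and 0.89, SE 0.16), and their part in the results was not tested.

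**Figure D5:**
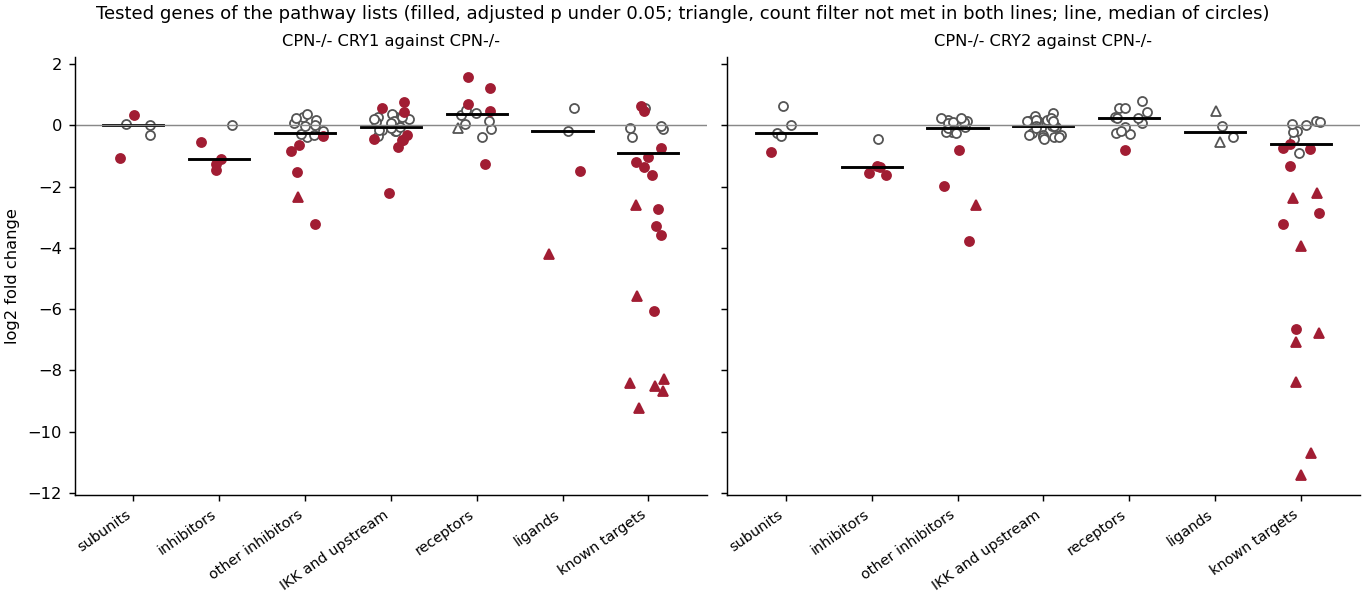
log2 fold change (y axis) of the tested genes in 7 lists of the NF-κB pathway against CPN-/-, for CPN-/- CRY1 (left) and CPN-/- CRY2 (right), filled where the adjusted p is under 0.05. Circles are genes that met the count filter in both lines and set the line at the median (−1.12 and −1.35 for the inhibitors, −0.89 and −0.62 for the known targets), and triangles are the others, whose fitted values depend on the prior count.

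For each member the genes with the most similar pattern were sought by Pearson correlation of log2 CPM over the 6 libraries, among 11394 genes whose mean count was 100 or more. The 6 libraries are 3 lines with 2 libraries each, and between 30 (Nfkb2) and 224 (Rela) genes had a correlation over 0.95, so the values are a description. Nfkbia was most like Tmem176a (0.995) and Ccl2 (0.995), and Nfkbie most like Gpi1 (0.998) and Cxcl1 (0.997). Ccl2 and Cxcl1 encode chemokines and are on the list of known targets. Relb was most like Plscr2 (0.999) and Bnip3 (0.998), Nfkbiz most like Mthfd2l (0.987) and Ripk2 (0.986), and Tnfaip3 most like Ralgps2 (0.994) and Il15ra (0.990). Rela was most like Frmd8 and Fads3 (0.999 each), both on chromosome 19 as is Rela. For the members not called against CPN-/-, the leading genes were Ltbp4 and Cd276 for Nfkb2 (0.992 each), St3gal1 and Aars for Nfkb1 (0.994 and 0.993), Fibp and Arl3, both on chromosome 19, for Nfkbib (0.998 each), and Magi1 and Dixdc1 for Rel (0.997 and 0.996).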

How the data were processed

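The deposited tables hold whole read counts per NCBI Gene identifier, which the authors made from paired-end reads of stranded, poly(A)-selected libraries with RNA STAR on mm10 and featureCounts. The annotation, the strand setting and the handling of reads with several matches are not given in the sources used here. No value was normalised or filtered before deposit.

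The counts of all 6 libraries (2 per line) were fitted together in edgeR 4.0.16 under R 4.3.3, with TMM factors, filterByExpr (minimum count 10, minimum total 15), the cell line as the only term and robust quasi-likelihood dispersions. Tests were two-sided with Benjamini-Hochberg adjustment over 14069 genes at 0.05. A gene met the filter within a line where both libraries reached the 0.343 CPM that filterByExpr asked for. The standard error is the log2 fold change over the square root of F. CPM use TMM library sizes, and the total counts per library set the precision. Levels per kb use the longest RefSeq-matched GENCODE transcript, and 729 tested genes had no RefSeq entry and no chromosome. BLAST+ 2.17.0 found no other transcript that was 95% identical over 150 bases to a member, apart from genes that overlap Nfkb2 and Nfkbib. The steps were tested on simulated data.

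The members, the lists and the tests were chosen with earlier results of these data known. All 10 members are named. From each list, at most 3 genes per direction and comparison with CPN-/- were named, taken by size of change from those called whose mean count was 100 or more and whose libraries did not overlap between lines, and for each member the 2 genes most like it. Alternatives were DESeq2 size factors, only genes without counts dropped, a minimum of 10 counts per library, the replicate number as a block, an offset for the trend of a library with transcript length (loess, span 0.5), the 4 libraries of a comparison alone, DESeq2 1.42.0, an adjusted p under 0.01, each library left out in turn, changes less the chromosome median, shares without length, and promoters with 50 bases after the start.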

Additional observations from a re-analysis of the deposited data

Results flagged for a closer look

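The difference between CPN-/- CRY1 and CPN-/- CRY2 passed its own test for 2 members. Rela was higher in CPN-/- CRY1, with a log2 fold change of 0.58 (edgeR adjusted p = 0.00706), and both CPN-/- CRY1 libraries (101 and 99.5 CPM) lay above both CPN-/- CRY2 libraries (67.0 CPM each). The median of chromosome 19 moved by 0.46 in the same comparison, and Rela less this median was at 0.12. Tnfaip3 was higher in CPN-/- CRY1 by 0.80 (edgeR adjusted p = 0.0115), with 15.99 and 19.8 CPM against 9.66 and 10.8 CPM, and by 0.96 relative to the median of chromosome 10.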

How the results depend on the processing

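Of 420 log2 fold changes of the members (30 results under 14 alternatives), 349 kept direction and side of the threshold, 25 were no longer called, 35 became called and 11, all of changes near 0 that were not called, turned sign. The latter were Rel in CPN-/- CRY1, at −0.18 with the length trend removed and between −0.28 and 0.44 with a library left out. Nfkb2 in CPN-/- CRY1 was between −0.078 and 0.20 with a library left out, and Nfkb1 in CPN-/- CRY2 was −0.011 with the length trend removed and between −0.087 and 0.14 with a library left out. Nfkbib in CPN-/- CRY1 was 0.0030 without a filter, 0.15 with the length trend removed and between −0.15 and 0.16 with a library left out. The causes were not tested.

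With a library left out, 3 to 6 members were called lower and 0 to 2 higher in CPN-/- CRY1, while CPN-/- CRY2 had 3 to 8 lower and 0 to 1 higher. In CPN-/- CRY1, 0 were called higher in the fit of 4 libraries and at an adjusted p under 0.01. Between the CRY lines, 0 to 2 were called lower and 0 to 5 higher with a library left out, 2 lower and 5 higher with the length trend removed or in the fit of 4 libraries, and 4 higher without a filter or with DESeq2. At an adjusted p under 0.01, 1 was called higher. Without CPN-/- replicate 1, genes called in the whole table rose from 574 lower and 363 higher in CPN-/- CRY2 to 3994 and 4052.

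The replicate numbers did not pair the samples, since the correlations of the replicate differences between lines were −0.08, 0.14 and −0.03. With the replicate number as a block, 5 members were lower in each comparison with CPN-/-, 0 were higher in CPN-/- CRY1, and Nfkbib in CPN-/- CRY1 was at 0.0001. With 2 libraries per line, the error of a fold change rests on the spread shared across genes and lines. Depth limits Rel most, with as few as 88 counts.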
